A study of Mus musculus with 12 samples.

Results

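The genes that code for the subunits of the respiratory chain and of ATP synthase were described across the livers of 12 mice. Members were all gene symbols that start with Ndufa, Ndufb, Ndufc, Ndufs, Ndufv, Uqcr, Cox4 to Cox8 or Atp5, or that are Sdha, Sdhb, Sdhc or Sdhd. The rule used names alone and no measured value, and it found 92 of the 23420 symbols in the count tables. Of these, 81 are subunits, with 36 in complex I, 4 in complex II, 8 in complex III, 18 in complex IV and 15 in complex V. The other 11 match the name pattern without being counted here as subunits of these complexes, and most of them are assembly factors (Ndufaf1 to Ndufaf7). Ndufa4 was counted with complex IV, where its protein is now placed.

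Liver mRNA was counted at its 3′ end in 4 groups of 3 mice each, all collected at zeitgeber time (ZT) 10, that is 10 h after lights on. WTF and WTM were wild type females and males, and KOF and KOM were Siah2-/- females and males, which lack the ubiquitin ligase SIAH2 in every cell from conception. All were C57BL/6 mice of about 20 weeks, and per the study's methods the wild type and Siah2-/- animals came from related lines that were founded from the same heterozygous crosses and then bred apart, so genotype and line cannot be told apart. The labels mention pooling of RNA from 3 mice, whereas the methods describe individual livers for this experiment and each library carries its own mouse number, so a library was treated as 1 mouse.

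Oxidative phosphorylation takes electrons from NADH at complex I and from succinate at complex II, passes them through ubiquinone to complex III and through cytochrome c to complex IV, where oxygen is reduced to water. Complexes I, III and IV pump protons across the inner mitochondrial membrane, and complex V, the ATP synthase, lets them flow back to make ATP. Most subunits are coded in the nucleus, and hepatocytes, which are rich in mitochondria, spend this ATP on glucose production, urea synthesis and lipid handling. A small set of catalytic subunits is coded by mitochondrial DNA. No symbol in the tables started with mt-, so those were not analysed here.

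Library totals ranged from 1293688 to 4056144 counts, and the 92 genes held 2.69% to 3.83% of them. Hepatocyte markers summed to 28938 to 44894 CPM (counts scaled to the library total) in every library, and Xist ranged from 66.2 to 113 CPM in females and reached at most 0.868 CPM in males. Siah2 itself stood at 9.63 to 12.5 CPM in KOF against 11.5 to 17.0 CPM in WTF, and at 9.42 to 17.4 CPM in KOM against 16.8 to 27.1 CPM in WTM. No source here places the counted end of the mRNA inside or outside the deletion, and these reads therefore do not check the genotype labels. The library of WTF 1091 stood apart from the others. In it, 38 of 82 tested members differed more than 1.5-fold from the mean of the other WTF mice, 32 of them upwards, and the same held for 46.9% of all genes tested. The same count was 28 in WTF 1089 (34.1%, against 25.7% of all genes) and 12 in WTF 1090 (14.6%, against 25.1%). For these 2 mice the mean included WTF 1091. It was between 2 and 8 in each mouse of the other groups (2.44% to 9.76%, against 15.2% to 24.8% of all genes). For the members, edgeR's counts of calls and medians that rest on WTF are therefore given with and without WTF 1091. DESeq2 was run with all mice only.

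The levels of the subunits spanned more than 3 orders of magnitude. A 3′ library gives about 1 read per transcript whatever its length, so CPM can be set side by side between genes. Over the 12 mice, 8 members averaged above 1000 CPM, 55 between 100 and 1000 CPM, 21 between 1 and 100 CPM and 8 below 1 CPM. The most abundant was Atp5a1, the α subunit of the catalytic head of ATP synthase, at 3340.2 CPM. Atp5g3, which codes for the proton-carrying c subunit of the rotor, followed at 2930.4 CPM. The most abundant members of the other complexes were Ndufb3, an accessory subunit of complex I, at 1579.8 CPM, Sdhc, a membrane anchor of complex II, at 513 CPM, Uqcrfs1, the Rieske iron-sulfur protein of complex III, at 1078 CPM and Cox7c, a small subunit of complex IV, at 1760.4 CPM. Core subunits were not the most abundant ones in complex I: Ndufs1, which carries iron-sulfur clusters, averaged 56.5 CPM and Ndufs8 16.8 CPM. Of the catalytic pair of complex V, Atp5b averaged 633 CPM, well under its partner Atp5a1. Ndufs5 had 0 counts in all 12 libraries although other subunits of complex I were well counted. A count of 0 over 33049949 counts allows a level of up to 0.0908 CPM, and in a single library one of up to 0.740 to 2.32 CPM. Near-identical copies elsewhere in the genome can take reads from short, highly expressed genes of this kind, so levels of single members are uncertain to that extent.

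Summed over each complex, the mRNA of the 4 groups overlapped in most cases. All 92 genes together summed to 25546, 28522 and 41323 CPM in WTF 1089, 1090 and 1091. They summed to 38259, 36656 and 32494 CPM in the 3 KOF mice, 32669, 32394 and 34505 CPM in WTM and 33443, 29960 and 31942 CPM in KOM. WTF 1091 was the highest of all 12 mice and WTF 1089 the lowest, so the WTF group spanned the range of the other 3. Complex I summed to 9786.5 ± 2908 CPM in WTF, 10726 ± 844 in KOF, 10074 ± 248 in WTM and 9817 ± 446 in KOM (mean ± SD, n = 3). Complex V summed to 7473, 8479 and 11639 CPM in WTF and 12582, 12146 and 10237 CPM in KOF. In males, complex V summed to 10426, 10257 and 11025 CPM in WTM and 10359, 8946 and 9411 CPM in KOM. Only 1 KOF mouse lay below the WTM range, and the highest KOM mouse lay within it. Complex II, which also belongs to the tricarboxylic acid cycle, summed to 1474, 1499.8 and 1511.5 CPM in KOF and 1233, 1168 and 1039.5 CPM in KOM. These 2 groups did not overlap for complex II, whereas WTF and WTM did. The assembly factors and other matches summed to 274 to 324 CPM in WTF and 203 to 261 CPM in WTM. Their sums were 285 to 302 CPM in KOF and 203 to 248 CPM in KOM. For this set females lay above males without overlap in both genotypes. Complex III, which passes electrons to cytochrome c, summed to 3573 ± 859.91 CPM in WTF, 3409 ± 385 in KOF, 3403 ± 140.23 in WTM and 3411 ± 153 in KOM (mean ± SD, n = 3).

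**Figure D1:**
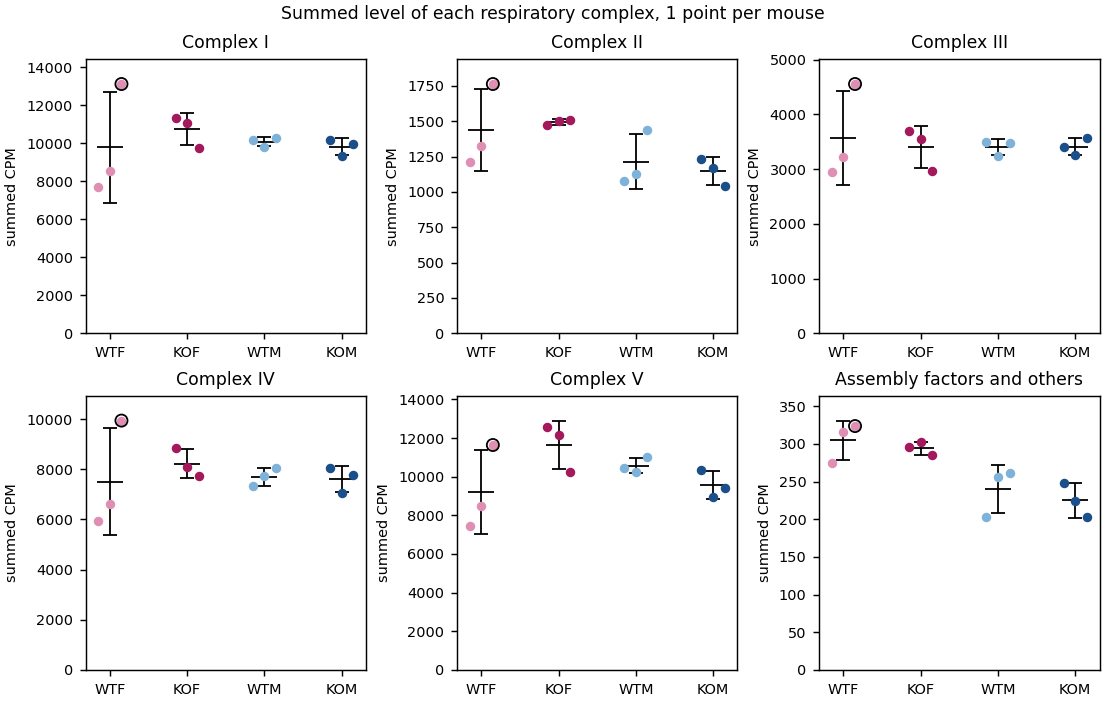
Summed CPM (y axis, linear, from 0) of the genes of each respiratory complex and of the assembly factors and other matches, by group (x axis), with 1 point per mouse and bars for mean ± SD of 3 mice. The ringed point is WTF 1091, which is the highest mouse in complexes I to IV and in the group of assembly factors, while the other WTF mice are the lowest in complexes I, IV and V.

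In females, the comparison of KOF with WTF asked whether loss of SIAH2 changed these mRNAs. None of the 82 members tested passed edgeR's quasi-likelihood test at an adjusted p under 0.05 in 3 against 3 mice, and neither did any of the 9465 genes tested (0.0%). At an unadjusted p under 0.05 there were 12 members, 5 higher and 7 lower in KOF, which is 14.6% against 15.6% of all genes (7.3% higher and 8.31% lower). Of the members, 39 lay above 0, as did 47.3% of all genes, and the median log2 fold change was −0.04, against −0.03 over all genes. By complex, the median was −0.13 for 35 genes of complex I, 0.08 for complex II, −0.08 for complex III, 0.05 for complex IV and −0.02 for complex V. Without WTF 1091 these medians were 0.12, 0.40, −0.01, 0.31 and 0.22, so complexes I and V turned sign. The 2 genotypes did not overlap in 20 members (24.4%), 8 higher and 12 lower in KOF, against 23.3% of all genes (11.4% higher and 11.9% lower). Without WTF 1091, 2 WTF and 3 KOF mice did not overlap in 46 members (56.1%), against 42.8% of all genes. DESeq2, the method the study used, was rerun here and called 3 members, all higher in KOF (3.8% of the genes it tested were called, 2.2% higher).

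The 3 genes called by DESeq2 belong to complexes I, IV and V. Ndufa1, a small membrane subunit needed to build complex I, lies on the X chromosome. It stood at 672, 800.05 and 865 CPM in WTF and 1370.2, 1287 and 1354 CPM in KOF. All KOF mice were above all WTF mice, with a log2 fold change of 0.77 ± 0.23 (SE, adjusted p = 0.16 by edgeR and 0.0333 by DESeq2). Ndufa4, now placed in complex IV, was at 338, 467 and 270.09 CPM in WTF and 704, 628 and 659.74 CPM in KOF. Again the groups were apart, and the log2 fold change was 0.88 ± 0.26 (SE, adjusted p = 0.156 by edgeR and 0.0307 by DESeq2). Atp5j codes for coupling factor F6 in the stalk that holds the head of ATP synthase. It measured 589, 657 and 527 CPM in WTF and 1214, 1018.5 and 984 CPM in KOF, without overlap. Its log2 fold change was 0.85 ± 0.23 (SE, adjusted p = 0.129 by edgeR and 0.0129 by DESeq2). WTM mice had 1060.4, 1274 and 1297 CPM of Ndufa1, 576, 690.17 and 678 CPM of Ndufa4 and 687, 749 and 844 CPM of Atp5j, so for Ndufa1 the WTF mice lay below every other mouse, and for Ndufa4 below all but 1 KOM mouse.

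Other members with large differences in females passed neither test. Ndufs3, a core subunit of complex I, had 81.9, 87.0 and 175 CPM in WTF and 246, 237 and 182 CPM in KOF. WTF 1091 was the only WTF mouse near the KOF range, and the log2 fold change was 0.94 ± 0.32 (SE, edgeR adjusted p = 0.199). Atp5a1 behaved in the same way, with 1716, 1896 and 3669 CPM in WTF, 5217, 4655 and 3745 CPM in KOF and a log2 fold change of 0.89 ± 0.34 (SE, edgeR adjusted p = 0.241). The 3 members with the lowest fold changes in KOF, among those of at least 10 CPM, were subunits of complex I. Ndufb8, an accessory subunit of the membrane arm, stood at 501, 518 and 491 CPM in WTF and 311, 335 and 298 CPM in KOF. Its 3 WTF mice were also above every male, which ranged from 301 to 361 CPM, and its log2 fold change was −0.69 ± 0.21 (SE, edgeR adjusted p = 0.166). Ndufab1, the mitochondrial acyl carrier protein, had 66.8, 82.5 and 62.7 CPM in WTF and 31.4, 45.3 and 39.1 CPM in KOF, a log2 fold change of −0.89 ± 0.24 (SE, edgeR adjusted p = 0.131). Ndufs8, an iron-sulfur subunit, had 23.1, 27.9 and 20.7 CPM in WTF and 13.8, 15.1 and 8.43 CPM in KOF, with a log2 fold change of −0.93 ± 0.30 (SE, edgeR adjusted p = 0.184). Sdhb, the iron-sulfur subunit of complex II, measured 334, 345 and 359.59 CPM in WTF and 244, 268 and 185 CPM in KOF, again without overlap (edgeR adjusted p = 0.25).

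Sdhd, a membrane anchor of complex II, varied widely within the groups. It had 125, 87.0 and 1.91 CPM in WTF, where the value of WTF 1091 rests on 6 reads. The KOF mice had 124, 159 and 238 CPM, WTM 71.1, 120.14 and 206 CPM and KOM 161, 122 and 48.1 CPM. The groups overlapped in every comparison, and the largest log2 fold change among members in females, 1.27 ± 0.85 (SE, edgeR adjusted p = 0.52), belonged to this gene and dropped to 0.71 without WTF 1091. In an edgeR fit with no filter beyond 1 count, Sdhd was called between KOF and WTF (adjusted p = 0.00188, 484 of 17177 genes called). It was also called there for the female change minus the male change (edgeR adjusted p = 0.00197, 325 of 17874 genes) and between KOF and KOM (0.0112, 1261 of 16683 genes).

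**Figure D2:**
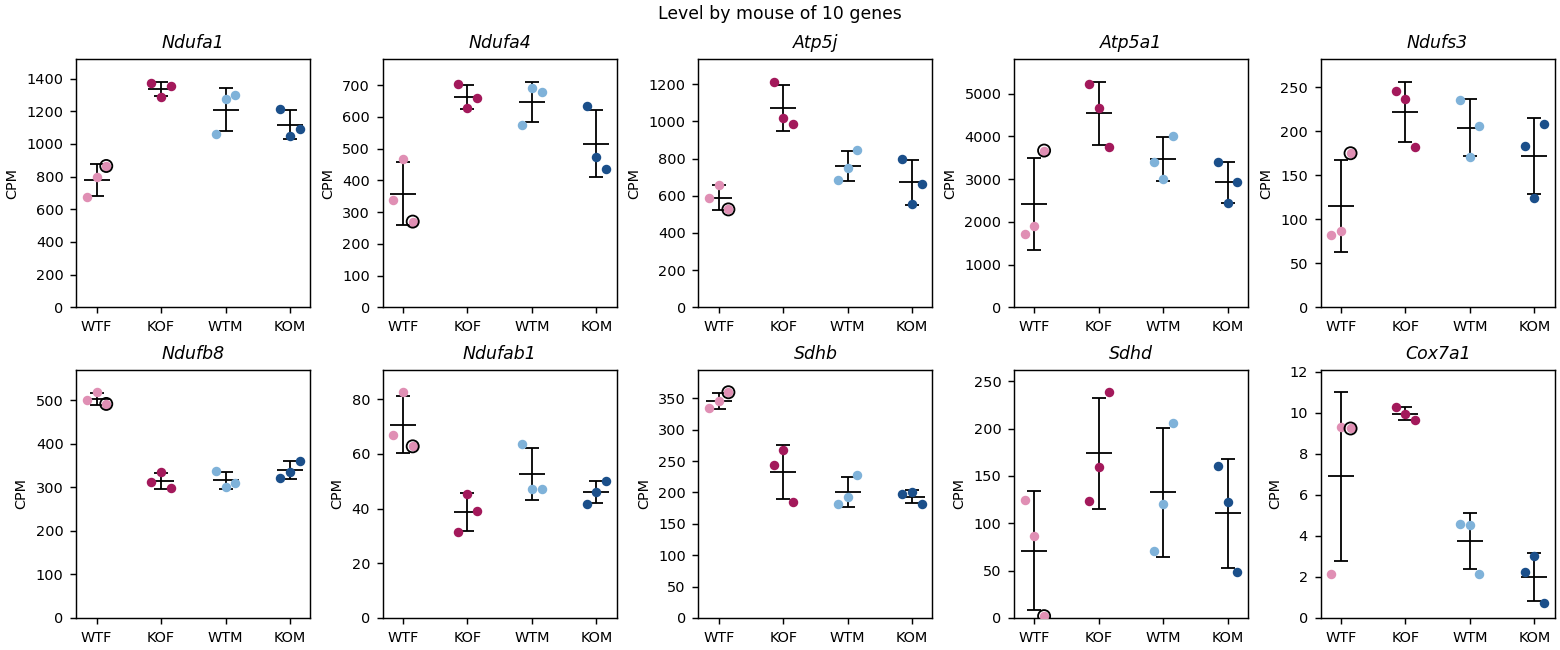
CPM (y axes, linear, from 0) of 10 genes by group (x axes), with 1 point per mouse, bars for mean ± SD of 3 mice and a ring around WTF 1091. Ndufa1, Ndufa4 and Atp5j are lower in all WTF than in all KOF mice and Ndufb8, Ndufab1 and Sdhb are higher, while for Ndufs3, Atp5a1 and Sdhd WTF 1091 lies far from the other WTF mice.

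Leaving out WTF 1091 changed the picture in females. With 2 WTF mice against 3 KOF mice, edgeR called 16 of 82 members, 13 higher and 3 lower in KOF (936 of 9709 genes were called, 9.64%, with 5.21% higher and 4.43% lower), and the median log2 fold change of the members was 0.18 against −0.01 over all genes. The sign of 22 members turned. The 3 lower members were Ndufb8, Ndufab1 and Ndufs8, described above, with adjusted p of 0.0256, 0.0198 and 0.0453 in this fit. The higher ones, listed after their values were seen, were Ndufa1, Ndufa5, Ndufa9, Ndufb3 and Ndufs3 of complex I, Uqcr11 and Uqcrfs1 of complex III, Cox5b, Cox6b1, Cox8a and Ndufa4 of complex IV, and Atp5a1 and Atp5j of complex V. Atp5a1 then had a log2 fold change of 1.33 (edgeR adjusted p = 0.00525) and Ndufs3 1.39 (edgeR adjusted p = 0.00377). Cox6b1, which sits between the monomers of complex IV, was among them. It had 794, 774 and 2530.2 CPM in WTF 1089, 1090 and 1091 and 1471, 1432 and 1195.5 CPM in KOF, so that 2 WTF mice lay below all KOF mice and 1 far above them. Its log2 fold change was −0.01 ± 0.44 (SE) with WTF 1091 and 0.80 without it (edgeR adjusted p = 0.994 and 0.0215). Cox8a, another small subunit of complex IV, was at 456, 477 and 1379 CPM in WTF and 869, 809 and 824 CPM in KOF, again with 2 WTF mice below all KOF mice and WTF 1091 above them. Whether the libraries of WTF 1089 and 1090 or that of WTF 1091 stand for the group cannot be told from 3 mice. Ndufa1, Ndufa4 and Atp5j kept their direction without any 1 female, with log2 fold changes of 0.67 to 0.86, 0.72 to 1.11 and 0.75 to 0.92.

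**Figure D3:**
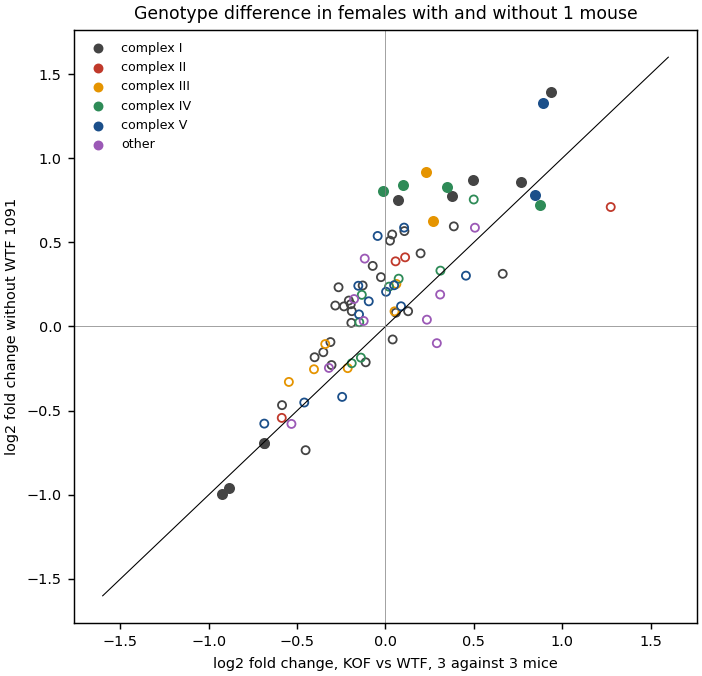
Log2 fold change of KOF against WTF for each of the 82 members with all 6 females (x axis) and without WTF 1091 (y axis), coloured by complex, with the line of equality. Filled points are the 16 members with an edgeR adjusted p under 0.05 without WTF 1091, and most points lie above the line.

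The promoters of 4 members described above are printed to show sequences with and without motifs known from respiratory genes. Ndufa4 and Atp5j were called by DESeq2 in females. Ndufb8 was the member called lower by DESeq2 in the test of the difference between the sexes, described next. Sdhd varied widely and passed only in edgeR's fit with no filter beyond 1 count. Each run holds the 250 bases before an annotated start, from RefSeq on GRCm38.p6 and written 5′ to 3′ on the gene's strand. Capitals mark matches on either strand to the motifs GCGCA, any base, GCGC (bound by NRF1), CCGGAAG (bound by ETS factors such as GABPA) and AAGATGGCG (bound by YY1), which are factors known for promoters of respiratory genes. Atp5j has 2 annotated starts, and the window of the inner one is shown (chr16:84834977-84835226, minus strand) because the outer one (chr16:84835626-84835875) held none of the motifs. The windows of Sdhd (chr9:50603850-50604099), Ndufa4 (chr6:11907451-11907700) and Ndufb8 (chr19:44555443-44555692) also lie on the minus strand.
Atp5j: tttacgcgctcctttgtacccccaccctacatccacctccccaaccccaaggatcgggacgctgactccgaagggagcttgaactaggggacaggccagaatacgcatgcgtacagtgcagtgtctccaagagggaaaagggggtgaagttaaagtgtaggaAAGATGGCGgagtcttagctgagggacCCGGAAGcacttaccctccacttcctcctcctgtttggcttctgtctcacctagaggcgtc
Sdhd: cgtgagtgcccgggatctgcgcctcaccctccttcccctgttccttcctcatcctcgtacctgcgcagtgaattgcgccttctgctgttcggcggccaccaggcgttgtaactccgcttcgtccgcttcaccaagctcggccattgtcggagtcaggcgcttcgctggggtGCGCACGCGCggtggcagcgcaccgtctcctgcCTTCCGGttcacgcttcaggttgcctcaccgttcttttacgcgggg
Ndufa4: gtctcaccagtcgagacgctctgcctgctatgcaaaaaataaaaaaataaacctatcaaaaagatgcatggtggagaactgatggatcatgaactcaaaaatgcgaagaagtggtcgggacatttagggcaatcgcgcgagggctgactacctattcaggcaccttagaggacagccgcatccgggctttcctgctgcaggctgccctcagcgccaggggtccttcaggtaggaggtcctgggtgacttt
Ndufb8: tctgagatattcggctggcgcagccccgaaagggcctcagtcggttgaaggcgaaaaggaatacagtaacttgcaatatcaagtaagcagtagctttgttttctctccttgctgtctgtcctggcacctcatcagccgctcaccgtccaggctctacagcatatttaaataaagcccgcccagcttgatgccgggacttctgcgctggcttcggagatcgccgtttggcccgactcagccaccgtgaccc
The window shown for Atp5j held a match for YY1 and a match for GABPA, and Sdhd held a match for NRF1 and a reverse match for GABPA. Neither Ndufa4 nor Ndufb8 held any of the 3 strings. Among 82 such windows of the 76 members with an entry, 18.3% held the NRF1 string, 15.9% the GABPA string and 2.44% the YY1 string, against 3.74%, 6.91% and 0.606% of all 32851 windows of the same length. At least 1 of the 3 strings was present in 31.7% of the member windows and 10.5% of all windows. When the 50 bases after the start were included, giving windows of 300 nt, the shares of member windows were 24.4%, 20.7% and 11.0%, and those of all windows 4.60%, 8.86% and 1.40%. These shares describe letters in a window and not binding.

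In males, the fold changes between KOM and WTM were small. None of 80 members tested passed edgeR or DESeq2, while none of 8823 genes passed edgeR (0.0%) and 0.037% passed DESeq2. At an unadjusted p under 0.05 there were 3 members, all lower in KOM, which is 3.75% against 4.05% of all genes (2.43% lower). Of the 80, 27 lay above 0 (48.1% of all genes), and the median log2 fold change was −0.08 against −0.01 over all genes. The 3 were Atp5f1, Cox5a and Cox7a2. Atp5f1, the b subunit of the stalk of ATP synthase, had 186, 186 and 211 CPM in WTM and 149.65, 150.18 and 144 CPM in KOM. All KOM mice were below all WTM mice, with a log2 fold change of −0.41 ± 0.15 (SE, unadjusted p = 0.0152, adjusted p = 0.9999 by edgeR). Cox5a, a subunit on the matrix side of complex IV, had 352, 383 and 446 CPM in WTM and 332, 309 and 267 CPM in KOM (log2 fold change −0.39 ± 0.15, SE, edgeR adjusted p = 0.9999). Cox7a2, the form of its subunit that liver uses, had 366, 441 and 423 CPM in WTM and 347, 317 and 313 CPM in KOM (log2 fold change −0.35 ± 0.14, SE, edgeR adjusted p = 0.9999). The genotypes did not overlap in 6 of 80 members (7.50%), against 8.87% of all genes. All log2 fold changes of members in males lay between −0.41 and 0.41.

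Whether the genotype difference was unlike in females and males was tested as an interaction over the 12 mice. None of 82 members passed edgeR, while 25 of 9806 genes did (0.255%), and 11 members had an unadjusted p under 0.05 (13.4%, against 14.1% of all genes). DESeq2 called 5 members, Ndufa1, Ndufa4, Atp5j and Atp5f1 with a positive difference and Ndufb8 with a negative one (4.03% of the genes it tested were called, 2.26% higher and 1.77% lower). For Ndufa4 the female change exceeded the male change by 1.22 ± 0.31 on the log2 scale (SE, adjusted p = 0.102 by edgeR and 0.00577 by DESeq2). For Atp5j the excess was 1.04 ± 0.28 (SE, adjusted p = 0.109 and 0.00545), and for Ndufa1 it was 0.89 ± 0.26 (SE, adjusted p = 0.125 and 0.00577), each by edgeR and DESeq2. Ndufb8 differed by −0.78 ± 0.23 (SE, adjusted p = 0.139 and 0.00316), with KOM mice at 321, 336 and 361 CPM and WTM mice at 337, 301 and 309 CPM. Without WTF 1091, edgeR called 12 of 82 members and 5.15% of 10127 genes, among them Ndufa1, Ndufa4, Atp5j and Ndufb8. Atp5f1 was not among them (adjusted p = 0.0815). In 32 of 80 members (40.0%) the log2 fold change had the same sign in females and males, against 44.8% of 8659 genes.

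**Figure D4:**
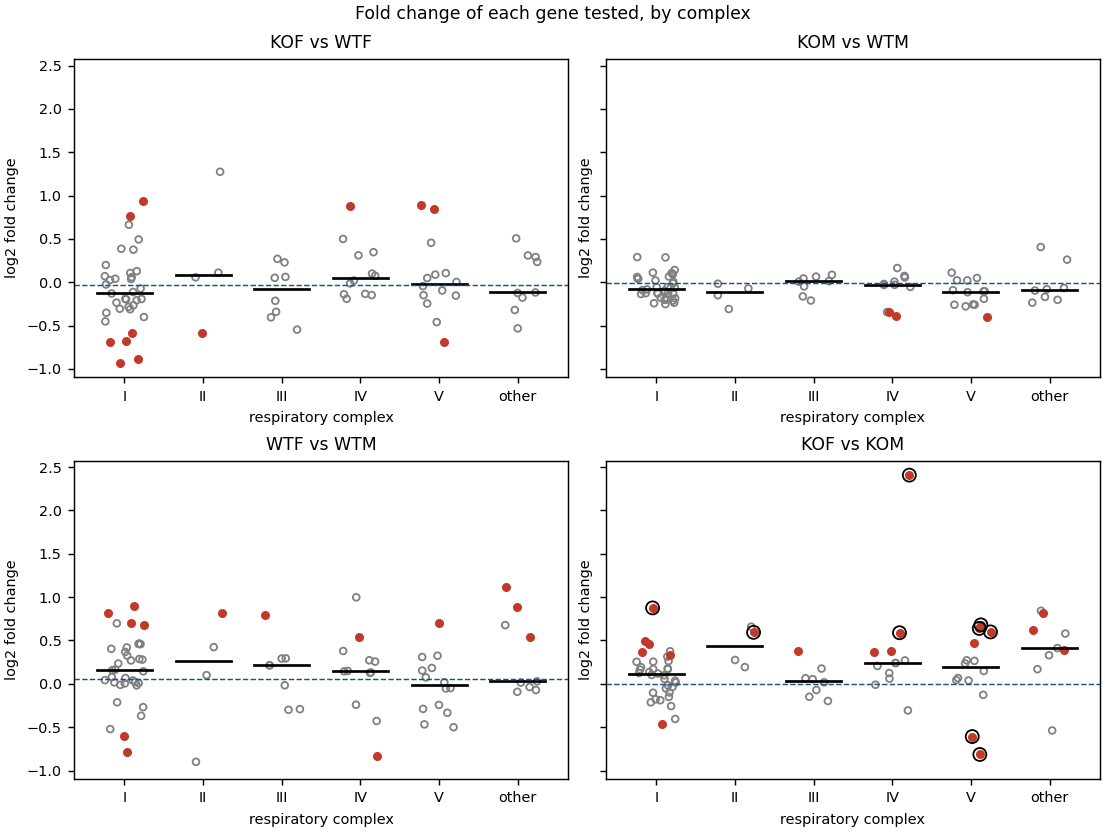
Log2 fold change (y axes) of each member tested in 4 comparisons, by respiratory complex (x axes, "other" for assembly factors and other matches). Filled points have an unadjusted edgeR p under 0.05, rings mark the 9 members with an adjusted p under 0.05, solid bars are medians per complex and the dashed line is the median of all genes tested. KOM against WTM shows the smallest spread, and rings appear in KOF against KOM alone.

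Between the sexes, wild type females and males were compared with all 6 mice and without WTF 1091. The sexes were deposited as separate tables and no library batch is given in the sources used here, so a batch would not be told apart from sex. None of 82 members passed edgeR, while 130 of 9335 genes did (1.39%), and 14 members had an unadjusted p under 0.05 (17.1%, against 15.2% of all genes). In WTF, 57 of 82 members were above WTM (54.7% of all genes), with a median log2 fold change of 0.14 against 0.05 over all genes. Without WTF 1091, 36 were above and the median was −0.12, with 16 members called, 5 higher and 11 lower in WTF (7.73% of 9576 genes, 3.25% higher and 4.48% lower). DESeq2 called Sdhb and Ndufa4 with all mice (3.68% of the genes it tested). Sdhb was at 182, 193 and 228 CPM in WTM, below each of the WTF values given above, with a log2 fold change of 0.82 ± 0.22 (SE, adjusted p = 0.123 by edgeR and 0.0436 by DESeq2). Ndufa4 was lower in WTF than in WTM, with a log2 fold change of −0.83 ± 0.26 (SE, adjusted p = 0.17 by edgeR and 0.0474 by DESeq2). Ndufb8 and Ndufb4 of complex I were higher in WTF in every mouse, with log2 fold changes of 0.71 ± 0.22 and 0.90 ± 0.25 (SE, edgeR adjusted p = 0.166 and 0.131), and edgeR called both without WTF 1091 (adjusted p = 0.0263 and 0.0394). Cox8a turned from 0.13 ± 0.42 (SE) to −0.64 when WTF 1091 was left out (edgeR adjusted p = 0.0369). WTF and WTM did not overlap in 22 members (26.8%, against 22.7% of all genes), and without WTF 1091 in 50 (61.0%, against 41.7%). Beside these results, 2 of 5 Kupffer markers were called higher in WTF and the 1 red blood cell marker tested was called lower. Of the 5 red blood cell markers in the tables, 4 had 0 counts in all 12 libraries, the globin genes Hba-a1 and Hbb-b1 among them. The blood content of these livers therefore cannot be read from this list. The 1 red blood cell marker tested stood at 20.1 to 25.2 CPM in WTF and 83.9 to 105 CPM in WTM. The Kupffer markers summed to 355 to 475 CPM in WTF and 58.5 to 520 CPM in WTM. Their part in the results was not tested.

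Between Siah2-/- females and males, edgeR called 9 of 82 members, 7 higher and 2 lower in KOF than in KOM, which is 11.0% against 11.5% of 9102 genes (5.69% higher and 5.78% lower). In KOF, 61 members were above KOM (49.9% of all genes), with a median log2 fold change of 0.17 against −0.0016 over all genes. Complex V had the most calls, 5 of 14 members tested, then complex IV with 2 of 12, and complexes I and II with 1 each of 35 and 4. Neither edgeR nor DESeq2 called any of the 8 genes of complex III (DESeq2 called 8.2% of those it tested), and 1 had an unadjusted p under 0.05 (26.1% of all genes). KOF and KOM did not overlap in 27 members (32.9%, against 30.7% of all genes). Of the 9 calls, Cox7a1 passed the filter on low counts through KOF alone. Many of the members are short. When fold changes were corrected for transcript length, 45 of 82 members were above 0 (48.5% of all genes). The median was then 0.04 against −0.02 over all genes, and 11 members were called, beside 1105 of 9102 genes. In a fit of all 4 groups with a shared spread, 1 member was called, beside 352 of 9806 genes. The same fit called 5 members between KOF and WTF (427 of 9806 genes) and 6 between WTF and WTM (505 of 9806 genes). In the fit of KOF and KOM alone the count was 2 without KOM 1081 (486 of 9461 genes). It was 3 without KOF 1070 (552 of 9355 genes) and 5 without KOM 1076 (708 of 9442 genes).

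In complex V, the members called in KOF against KOM went in both directions. Atp5a1 had 3410.4, 2445 and 2927 CPM in KOM, below each of the KOF values given above, with a log2 fold change of 0.64 ± 0.18 (SE, edgeR adjusted p = 0.0342). Atp5j, at 798, 555 and 663 CPM in KOM, had a log2 fold change of 0.68 ± 0.17 (SE, edgeR adjusted p = 0.0182). Atp5f1 stood at 231, 240.46 and 197 CPM in KOF against the KOM values given above, which did not overlap, with a log2 fold change of 0.60 ± 0.15 (SE, edgeR adjusted p = 0.0175). Lower in KOF were Atp5d and Atp5o, which code for the δ subunit of the central stalk and for the protein that caps the head (OSCP). Atp5d had 427, 462 and 364 CPM in KOF and 751, 513 and 655 CPM in KOM, a log2 fold change of −0.61 ± 0.17 (SE, edgeR adjusted p = 0.0319). Atp5o had 339, 331 and 197 CPM in KOF and 406, 488 and 643 CPM in KOM, and KOF 1105 was the lowest of all 12 mice (log2 fold change −0.81 ± 0.21, SE, edgeR adjusted p = 0.0244). Atp5b, the catalytic β subunit, had a log2 fold change of 0.47 ± 0.16 (SE) and passed DESeq2 alone (adjusted p = 0.0488, 0.0712 by edgeR). Atp5c1, the γ subunit that turns within the head, had 0.15 ± 0.15 (SE, edgeR adjusted p = 0.584).

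Outside complex V, 4 members were called, all higher in KOF. Ndufc2, a membrane subunit of complex I, had 218, 229 and 229 CPM in KOF and 138, 105 and 126 CPM in KOM. The 3 KOF mice lay close together and above all males, and the log2 fold change was 0.88 ± 0.15 (SE, edgeR adjusted p = 0.00176). WTF 1091 had the lowest Ndufc2 of all 12 mice, at 60.5 CPM. Sdha, the flavoprotein that oxidises succinate, had 542, 488 and 562 CPM in KOF and 398, 338 and 322 CPM in KOM, a log2 fold change of 0.59 ± 0.15 (SE, edgeR adjusted p = 0.0202). Cox7a2 had 534, 464 and 466 CPM in KOF against 313 to 347 CPM in KOM, with a log2 fold change of 0.59 ± 0.15 (SE, edgeR adjusted p = 0.0177). Cox7a1, the form known from heart and skeletal muscle, was rare in these livers. It had 10.3, 9.94 and 9.63 CPM in KOF, from 38, 27 and 16 reads, and 2.26, 3.04 and 0.739 CPM in KOM, from 6, 7 and 3 reads. In wild type mice it stood at 2.17, 9.30 and 9.24 CPM in WTF and 4.59, 4.52 and 2.17 CPM in WTM, so that WTF 1089 lay within the male range. KOM reads were too few to pass the filter on their own and the gene was not tested in males, so its place among the calls rests on the KOF reads. The fitted log2 fold change between KOF and KOM was 2.41 ± 0.48 (SE, edgeR adjusted p = 0.00474), and Cox7a1 was the member still called in the fit of all 4 groups (adjusted p = 0.0293). Beside it, the 4 striated muscle markers summed to 0.736 to 1.20 CPM in KOF and 0 in KOM, 2 of them being at 0 in all 12 mice, and the 4 fat markers to 0 in KOF and 3.47 to 26.4 CPM in KOM. All 5 Kupffer cell markers tested were higher in KOF than in KOM, 4 of them called by edgeR, with sums of 281 to 712 CPM and 82.3 to 175 CPM, and hepatocyte markers summed to 35810 to 44894 CPM and 29247 to 33695 CPM. Called lower in KOF was the 1 red blood cell marker tested (8.47 to 19.3 CPM and 103 to 154 CPM), the others being at 0, with the limit on blood content given above. The 1 pancreatic acinar marker tested was also called lower (its list summed to 10.8 to 21.6 CPM and 20.8 to 57.4 CPM). Of 5 endothelial markers, 3 were higher at an unadjusted p under 0.05 and 0 were called by edgeR or DESeq2. The part of these cell types in the results was not tested, and in whole liver more cells of a type cannot be told apart from more RNA per cell. Ndufc2 was called without any 1 of these 6 mice (adjusted p of at most 0.0155), as was Cox7a1 with the limit given above (at most 0.0323), whereas the other 7 each lost the call without at least 1 mouse.

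**Figure D5:**
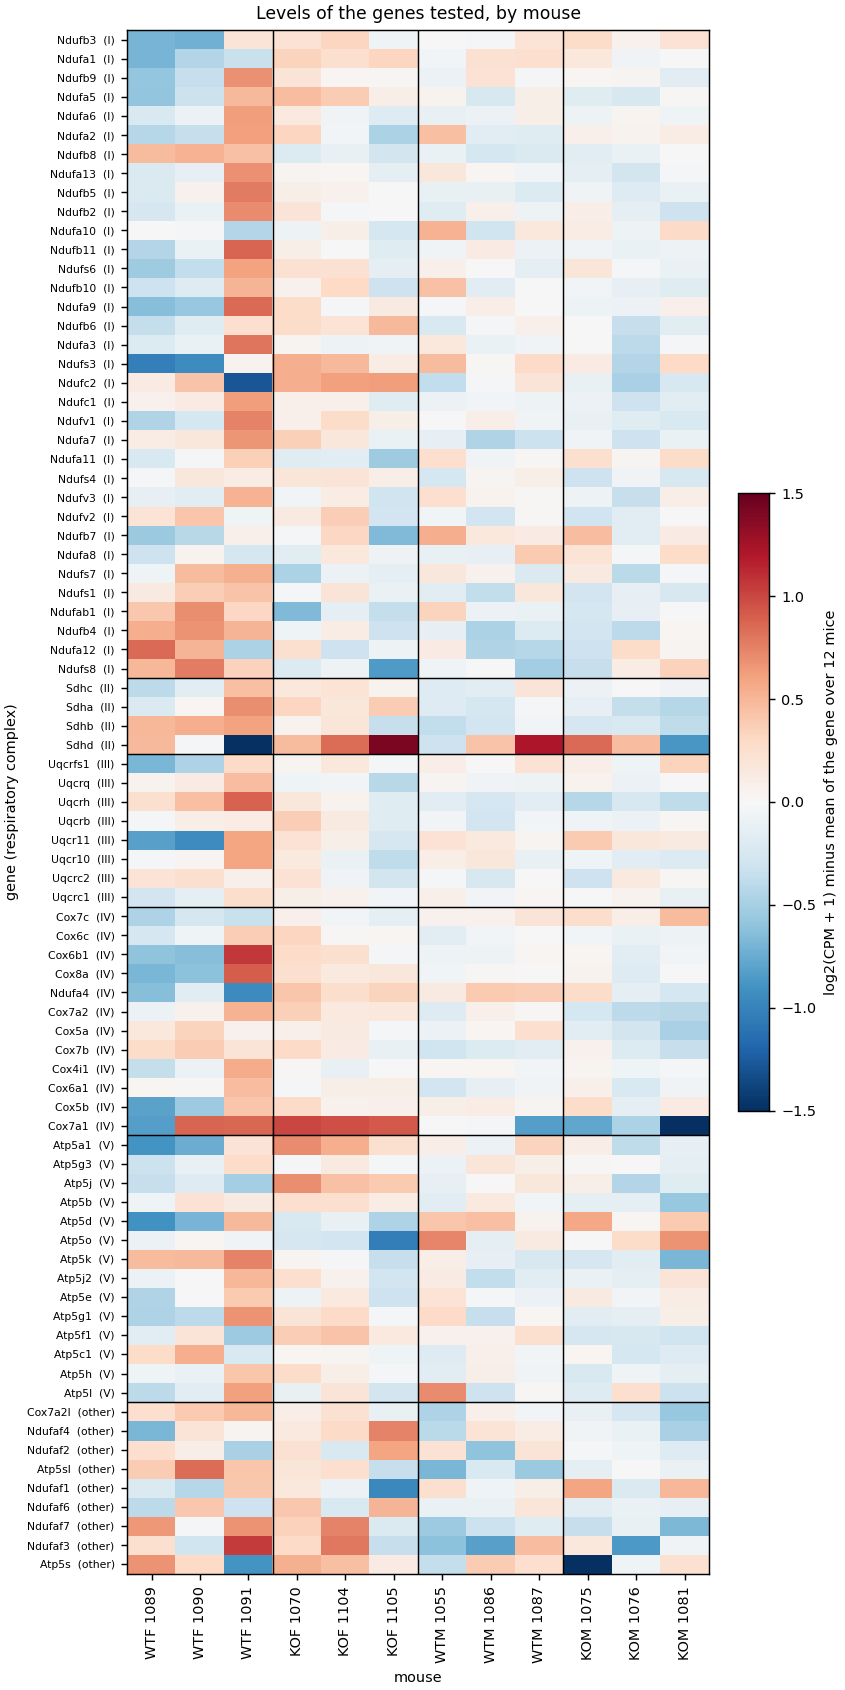
Heat map of 81 of the 82 members tested (rows, grouped by complex and sorted by mean level) in the 12 mice (columns), coloured by log2(CPM + 1) minus the mean of the gene over all mice, with colours saturating at 1.5. The column of WTF 1091 is mostly red, and the male columns are mostly pale.

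Isoform groups showed the forms usual for liver. Cox7a2 averaged 425 CPM and Cox7a1 5.66 CPM. Cox6a1 averaged 299 CPM and Cox6b1 1267 CPM, while the muscle form Cox6a2 had 4 reads and the testis form Cox6b2 12 reads in all 12 libraries together. Cox4i1 averaged 343 CPM, and Cox4i2, which other tissues use at low oxygen, had 0 counts in all libraries. Cox8a averaged 761 CPM against 0 counts of Cox8b and Cox8c, and Cox7b 374 CPM against 0 counts of Cox7b2. Ndufa4l2, a relative of Ndufa4 that hypoxia induces, had 0 to 5 reads per library. The 3 genes that code for the same c subunit of ATP synthase stood at 2930.4 CPM for Atp5g3, 219 CPM for Atp5g1 and 1.11 CPM for Atp5g2. Neither Atp5g3 nor Atp5g1 passed edgeR or DESeq2 in any of the comparisons, and Atp5g2 had too few reads to be tested. Cox4i1, often used as a loading control for mitochondria, differed by −0.13 ± 0.27 between KOF and WTF and by −0.03 ± 0.14 between KOM and WTM on the log2 scale (SE), with WTF mice at 265, 320.2 and 502 CPM. Without WTF 1091 the female value was 0.19.

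The 9 tested genes that are not subunits gave no call by edgeR or DESeq2 in the 5 comparisons with all mice. Of all genes, edgeR called from 0.0% to 11.5% in these comparisons. Between wild type sexes 3 of the 9 had an unadjusted p under 0.05 (33.3%, against 15.2% of all genes). Between Siah2-/- sexes there were also 3 (33.3%, against 26.1%). Atp5sl had 23.5, 32.7 and 24.2 CPM in WTF, 20.3, 21.4 and 13.8 CPM in KOF, 10.7, 15.1 and 11.8 CPM in WTM and 16.2, 17.8 and 16.5 CPM in KOM. It was lower in every KOF than in every WTF mouse and higher in every KOM than in every WTM mouse, and the difference of the changes was −0.93 ± 0.36 (SE, edgeR adjusted p = 0.242). Between wild type sexes it had the largest fold change of the members, 1.12 ± 0.29 (SE, edgeR adjusted p = 0.101, and 0.0307 without WTF 1091). In the fit of all 4 groups, edgeR called Atp5sl between wild type sexes (log2 fold change 1.09, adjusted p = 0.0224), beside 505 of 9806 genes. Ndufaf7, a mitochondrial methyltransferase needed to build complex I, had 20.6, 12.6 and 21.0 CPM in WTF and 8.41, 10.1 and 11.1 CPM in WTM (edgeR adjusted p = 0.238). Cox7a2l, which helps to join complexes III and IV, averaged 111 CPM and its log2 fold change in females was −0.32 ± 0.21 (SE, edgeR adjusted p = 0.517).

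Related gene lists were set beside the members. The list of other oxidative phosphorylation genes (cytochrome c, electron carriers and further assembly factors) had 39 genes tested and 0 called by edgeR in females, in males or between wild type sexes. At an unadjusted p under 0.05 there were 6 in females, 3 in males and 5 between wild type sexes, and DESeq2 called 1, 0 and 0. The 6 in females are 15.4% of the list, against 15.6% of all genes. The 3 in males are 7.69% (against 4.05%) and the 5 between wild type sexes 12.8% (against 15.2%). The DESeq2 call in females is 2.56% of the list, against 3.8%. Without WTF 1091, edgeR called 5 of the 39 in females (12.8%, against 9.64% of all genes), all higher in KOF. Between wild type sexes it then called 2 of the 39 (5.13%, against 7.73%), both lower in WTF. Cycs, cytochrome c itself, was the gene called by DESeq2 in females, at 52.3, 84.9 and 28.3 CPM in WTF and 112, 130.36 and 142 CPM in KOF. All KOF mice were above all WTF mice (log2 fold change 1.20 ± 0.35, SE, adjusted p = 0.156 by edgeR and 0.0331 by DESeq2). Between KOF and KOM, 6 of the 39 were called (15.4%, against 11.5% of all genes), all higher, including Cycs (0.83 ± 0.17, SE) and Atpif1, the inhibitor that stops ATP synthase from running backwards (1.48 ± 0.21, SE). Atpif1 had 86.9, 65.5 and 56.6 CPM in KOF and 27.1, 19.5 and 28.6 CPM in KOM, without overlap. Of the regulators of mitochondrial biogenesis, 0 of 12 were called in females by edgeR or DESeq2. There, 3 had an unadjusted p under 0.05, all higher in KOF (25%, against 15.6% of all genes). Without WTF 1091 edgeR called 1 of 13 regulators (7.69%, against 9.64%). In KOF against KOM, 1 of 13 regulators was called (7.69%, against 11.5% of all genes). It was Ppargc1a, which codes for a coactivator of mitochondrial biogenesis, at 64.1, 45.7 and 71.0 CPM and 32.8, 37.8 and 29.8 CPM (log2 fold change 0.85 ± 0.20, SE, edgeR adjusted p = 0.0153). Of 14 enzymes of the tricarboxylic acid cycle, edgeR called 0 in females. There, 2 passed 0.05 before adjustment (14.3%, against 15.6% of all genes) and DESeq2 called 1 (7.14%, against 3.8%). In KOF against KOM, edgeR called 2 of the 14, both higher in KOF (14.3%, against 11.5% of all genes). Without WTF 1091, it called 2 of the 14 in females, 1 higher and 1 lower (14.3%, against 9.64%). The mitochondrial ribosome had 0 of 74 called by edgeR in females. There, 9 passed 0.05 before adjustment (12.2%, against 15.6% of all genes) and DESeq2 called 1 (1.35%, against 3.8%). In KOF against KOM, edgeR called 6 of 73, all higher (8.22%, against 11.5% of all genes). Without WTF 1091, 3 of the 74 were called in females (4.05%, against 9.64%). The cytosolic ribosome had 0 of 75 in females by edgeR, where 23 had an unadjusted p under 0.05, 8 higher and 15 lower, and DESeq2 called 12. These are 30.7% and 16% of the list, against 15.6% and 3.8% of all genes. Without WTF 1091, edgeR called 23 of the 75, 10 higher and 13 lower (30.7%, against 9.64% of all genes).

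The members share a short transcript, which the rule did not use. Length was that of the longest protein-coding GENCODE transcript of each symbol. Its median was 967 nt for 80 members with a value, against 3028 nt over all tested genes with one. The last 500 nt of these transcripts had a median GC content of 49.0% against 43.6%. Of the 80, 68 fell in the shortest 25% of the genes tested in females. For these short genes as a whole the median log2 fold change was −0.08 in KOF against WTF, 0.15 in WTF against WTM and 0.07 in KOF against KOM. The medians of the members, given above with all mice, lay in the same direction in these comparisons. Without WTF 1091, the member medians of KOF against WTF (0.18) and of WTF against WTM (−0.12) lay in the other direction. Medians of the short genes were computed with all mice only. For the difference between the sexes the short genes had a median of −0.03 and the members 0.05, and in males the medians were −0.03 and −0.08. The part of length in the differences between the sexes was not tested beyond the length correction.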

How the data were processed

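Liver RNA of 12 mice was sequenced as QuantSeq 3′ libraries. The authors deposited whole-number counts per gene symbol in 2 tables, 1 for each sex. The submitters' processing notes name STAR, DESeq and mm10 without versions, and no annotation for the counting step is named there or in the methods. Library totals of 1293688 to 4056144 counts bound the precision of low genes. No molecular identifiers are mentioned for these reads, so the upper limits for genes at 0 (3 counts) describe counting error alone. Groups and mouse numbers came from the sample titles. CPM were scaled by TMM over the 12 libraries.

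Each comparison was fitted on the whole table with edgeR 4.0.16 (quasi-likelihood test, filterByExpr, TMM, Benjamini-Hochberg adjustment, threshold 0.05) in R 4.3.3, on the 2 groups compared or, for the interaction, on all 12 mice. The study's own method was rerun as DESeq2 1.42.0, and its counts here are not those that the study reported. Standard errors were derived from the fold change and its F statistic. The scripts were tested on simulated data. Alternatives were DESeq2, RLE scaling, no filter beyond 1 count, limma-voom (limma 3.58.1), Rn45s left out, offsets for GC content and transcript length (splines with 5 df), a fit of all 4 groups, and each mouse left out. After the filter, 82 of 92 members were tested (80 in males). Not tested were Atp5g2, Cox4i2, Cox6a2, Cox6b2, Cox7b2, Cox8b, Cox8c, Ndufa4l2, Ndufaf5 and Ndufs5, and in males also Atp5s and Cox7a1.

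Named were members past an adjusted p of 0.05 by edgeR or DESeq2 (the 12 with the smallest p where there were more), the 3 highest and 3 lowest fold changes of each comparison at 10 CPM or more, the most abundant of each complex, core subunits and isoform groups, with members under 1 CPM given by counts only and assembly factors and other non-subunits described apart. The values of 1 member are not reported here. The members and lists were chosen with earlier results of these data known. Gene positions came from RefSeq on GRCm38.p6, where 89 members were found by symbol and 3 by synonym (Atp5f1, Atp5s and Atp5sl). Transcript length and GC content came from the longest protein-coding transcript of each symbol in GENCODE M1. There, Ndufaf5, Ndufaf6 and Ndufaf7 had no value. Mice were taken as the replicates, with 1 library each. The p-values set group differences against a spread estimated from these mice alone. In that spread, differences between mice and between libraries cannot be told apart.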

Additional observations from a re-analysis of the deposited data

Results flagged for a closer look

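The genotype difference was unlike in the sexes for 5 members by DESeq2's interaction term over 12 mice, and edgeR called none of them. DESeq2 called 267 of 6625 genes (4.03%) in the same test, and edgeR 25 of 9806 (0.255%). The female log2 fold change minus the male one was 1.22 for Ndufa4, 1.04 for Atp5j, 0.89 for Ndufa1 and 0.86 for Atp5f1 in edgeR's fit, each with a higher level in KOF than in WTF on average and a lower one in KOM than in WTM. For Ndufb8 it was −0.78, with a lower level in KOF and a slightly higher one in KOM. Atp5sl drew attention because its groups went opposite ways without overlap, down in KOF and up in KOM, with a difference of −0.93. For Atp5sl that pattern was not itself tested, and the interaction term for this gene gave an adjusted p of 0.242 by edgeR.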

How the results depend on the processing

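No paired analysis was possible because each mouse number belongs to 1 mouse only and no number is shared between groups. Counts over all genes stand in parentheses beside those of the members. In KOF against WTF, the 0 members called (0 of 9465) became 3 by DESeq2 (305 of 8031). They became 2 with no filter beyond 1 count (484 of 17177) and 5 in the fit of all 4 groups (427 of 9806). When each mouse was left out they became 0 to 16 (0 to 936), the 16 being without WTF 1091. The 12 members at an unadjusted p (1478) became 7 to 31 (999 to 2578). In KOM against WTM, the 3 at an unadjusted p (357) became 0 in the fit of all 4 groups (225). They became 0 to 4 when a mouse was left out (267 to 497), and the median of −0.08 became −0.041 with the length offset. For the interaction, the 0 called (25 of 9806) became 5 by DESeq2 (267 of 6625) and 3 with no filter (325 of 17874). They became 0 to 12 when a mouse was left out (0 to 522). The 11 at an unadjusted p (1382) became 9 to 29 (1068 to 2035), and the median of 0.05 became −0.15 to 0.30. In WTF against WTM, the 0 called (130 of 9335) became 2 by DESeq2 (338 of 9197) and 6 in the fit of all 4 groups (505 of 9806). They became 0 to 16 when a mouse was left out (43 to 740). The 14 at an unadjusted p (1423) became 7 to 30 (953 to 2365), and the median of 0.14 became −0.12 to 0.23. In KOF against KOM, the 9 called (1044 of 9102) became 1 in the fit of all 4 groups (352 of 9806). The 21 at an unadjusted p (2380) became 13 in that fit (1790). The 9 became 2 to 9 when a mouse was left out (486 to 1056), and the median of 0.17 became 0.042 with the length offset. Cox6b1 spanned −0.30 to 0.80 in KOF against WTF and Cox8a −0.64 to 0.40 in WTF against WTM when each mouse was left out, both turning sign without WTF 1091. The fits without 1 mouse rest on fewer mice; the cause of the other changes was not tested. Other medians, counts and summed levels stayed within 1.5 times or within the spread between mice. Of the values of single named genes, 3102 kept their direction and side of the threshold, 62 passed it newly, 33 no longer passed, 162 changed sign without passing it and 2, named above, changed sign with a call. The plan to leave out mitochondrial RNAs with Rn45s had none to remove. Depth limits the members below 10 CPM, such as Cox7a1, whose males had 3 to 9 reads per library.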
